A study of Mus musculus with 4 samples.

Results

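CD4+CD8+ double-positive (DP) thymocytes under positive selection were the thymocytes with UMIs of both coreceptors and at least 4 UMIs of the selection markers Itm2a, Cd69, Egr1, Egr2, Tox and Cd5 together, and 1693 of the 57354 deposited cells (2.95%) met this definition. They are called selected cells here. They made up 5.34% of the 31722 cells that passed the quality limits (at least 200 genes, at least 1500 UMIs and at most 10% mitochondrial UMIs) and 8.01% of the 21141 DP cells among these. A UMI is a molecular barcode that marks 1 captured RNA molecule, so that UMIs count molecules. The definition also asked for at least 1 UMI of Cd4, at least 1 of Cd8a and Cd8b1 together, none of S1pr1, Klf2 or Foxp3, fewer than 4 of the strong signal genes Tnfrsf9, Nr4a1, Nr4a3, Xcl1, Tnfrsf4 and Nfkbid, and at most 1 of the cycling genes Top2a, Mki67 and Nusap1. These 21 genes chose the cells, so their values below are a description and were not tested.

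RNA 3′ ends of single unsorted thymocytes were counted in 4 droplet libraries, from mice that carry loxP-flanked exons of Tox4, the gene of an HMG-box protein of the PNUTS-PP1 phosphatase complex. The control libraries, labelled WT with the genotype Tox4;F/F, carry the loxP sites but no Cre, and the cKO libraries have the genotype Tox4;F/F;Lck+, in which the proximal Lck promoter drives Cre from the DN3 stage. Each group has 2 libraries, called control 1, control 2, cKO 1 and cKO 2 below, and values of the 4 libraries are given in this order unless a library is named. The mice were littermates matched by sex, per the study's methods. No group has Cre without the loxP sites, so that the effect of Cre and that of Tox4 loss cannot be told apart.

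Positive selection is the step at which a DP thymocyte whose T cell receptor (TCR) binds self-peptide on MHC molecules of the thymic cortex is rescued from death by neglect. DP cells that have not yet been signalled keep the recombinases Rag1 and Rag2 on and go on rearranging Tcra, whereas TCR signals through ERK and calcium induce Egr factors, CD69 and CD5, shut off the recombinases, and restore IL-7 receptor and Bcl2. Cells then commit to the CD4 lineage under Zbtb7b (ThPOK) or to the CD8 lineage under Runx3, gain Ccr7 and leave the cortex for the medulla. TOX, a relative of TOX4, is itself induced by these signals and is needed for the CD4 lineage.

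Selected cells numbered 451, 470, 307 and 465 in the 4 libraries. Their pooled UMIs came to 2270596, 2031023, 1458937 and 1752473, and their median UMIs per cell were 4415, 3691, 4358 and 3261. They were set beside 3 further classes of DP cells that differed from them in 1 criterion each. Unselected cells (11210 cells) had at most 1 selection marker UMI, signalled cells (167 cells) had at least 4 strong signal UMIs, and maturing cells (638 cells) had at least 1 UMI of S1pr1 or Klf2. Unselected cells were shallower, with median UMIs of 3143, 2644, 3038 and 2306.5. Pairs of libraries shared 36 to 70 cell barcodes (0.305% to 0.555% of the smaller library), and 1 barcode was shared among selected cells, between control 1 and cKO 1. Cells in the top 5% of doublet scores of their library made up 8.43%, 12.8%, 6.51% and 7.96% of selected cells and 3.23% to 3.80% of unselected cells. Markers of other cells were present at low levels in selected cells, and the summed level of the 11 phagocyte genes was 355, 1095, 335 and 546 CPM (UMIs of a gene among 1000000 UMIs of its class in that library), with Csf1r and Fcer1g too low to be compared. Hemoglobin and other erythroid RNA came to 647, 13.3, 592 and 41.1 CPM.

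Itm2a, which codes for a membrane protein induced by TCR signals, supplied 48.1%, 44.8%, 49.3% and 43.2% of the marker UMIs that defined selected cells. Cd5, an inhibitor of TCR signalling, gave 19.1% to 21.7% and Tox gave 16.2% to 19.8%. The immediate early transcription factor Egr1 gave 7.42% to 10.2%, the early activation antigen Cd69 gave 5.06% to 6.29%, and Egr2 gave 0.82% to 1.33%. The median cell held 10, 7, 8 and 7 marker UMIs, and 60.0% to 68.5% of selected cells held UMIs of at least 3 of the 6 markers. Itm2a stood at 1393, 1210, 1290 and 1148 CPM in selected cells and at 30.1, 18.4, 23.5 and 18.3 in unselected cells, as the definition required. Coreceptor levels were lower in selected cells in each library, with Cd8b1 at 1227, 1258, 950 and 1077 CPM against 3004, 2688, 2461 and 2233 in unselected cells. Cd8a was at 985, 934, 585 and 640 against 1962, 1492, 1199 and 1079, and Cd4 at 462, 502, 466 and 536 against 821, 824, 736 and 859. All 3 coreceptor genes are part of the definition, but in it they were asked of both classes alike.

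Egr2, the marker with the fewest UMIs, is an early target of the ERK pathway through serum response factor, which binds CArG boxes, and its start region is shown because it holds one. The sequence is the 250 bases before a RefSeq start site of Egr2 on GRCm38.p6, chr10:67537316-67537565 on the plus strand, with the CArG box in capitals, 72 bases before the start.
Egr2: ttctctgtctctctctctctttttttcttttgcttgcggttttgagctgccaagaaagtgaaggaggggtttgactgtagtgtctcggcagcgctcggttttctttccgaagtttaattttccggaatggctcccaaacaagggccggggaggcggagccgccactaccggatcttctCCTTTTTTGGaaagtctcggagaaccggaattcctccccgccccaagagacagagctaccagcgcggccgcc
Of the 5 RefSeq start sites of Egr2, 4 had a CArG box in this window on either strand. Among all 32851 RefSeq start windows of this length the share was 1.47%. In shares over genes, a gene counts when any of its windows holds the letters.

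Outside the genes of the definition, selected cells had higher Il7r, Bcl2, Cd53, Cd2 and Nab2 and lower Rag1, Rag2 and Arpp21 than unselected cells of the same library, in every library. Of 6512 genes with at least 20 CPM in 1 of the classes, 114 (1.75%) were at least 2-fold higher in each of the 4 libraries and 76 (1.17%) at least 2-fold lower, with 5 CPM added to each level. The median log2 ratio of all 6512 genes was −0.07. Both classes were cut from the same libraries by marker level, so that these contrasts are a description with no test. All 6 markers of the label are part of the definition, so that they could not serve as a check of it.

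**Figure D1:**
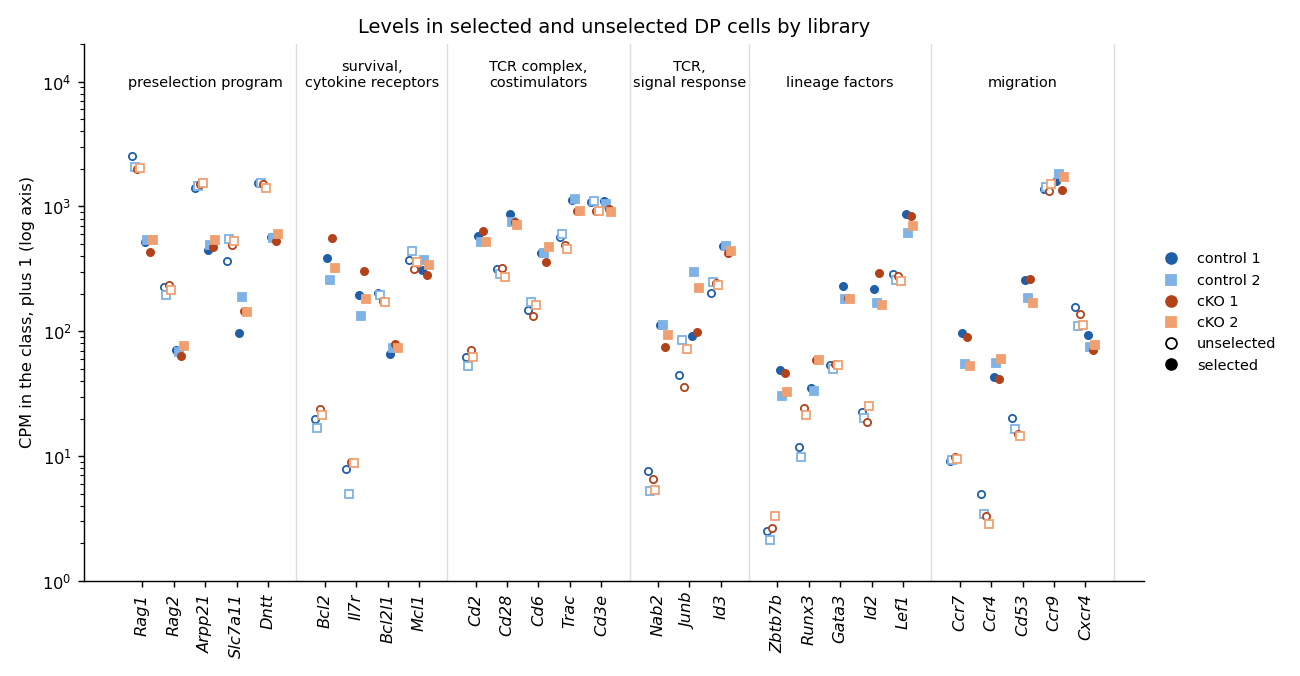
Levels of genes in unselected cells (open symbols) and selected cells (filled symbols) of each library, in CPM plus 1 on a log axis, by gene group, with 1 symbol for each of the 4 libraries. Il7r, Bcl2, Cd2 and Nab2 lie higher in selected cells in every library, and Rag1 and Arpp21 lie lower.

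Genes of the preselection DP program formed the most uniform group. Of 15 such genes, 10 were at least 2-fold lower in every library and none was higher, with a median log2 ratio of −1.35. Rag1, the catalytic recombinase subunit, was at 521, 535, 427 and 536 CPM in selected cells and at 2526, 2064, 2010 and 2042 in unselected cells. The highest selected value thus lay below the lowest unselected value by a wide gap. Its partner Rag2 was at 69.6, 67.5, 62.4 and 75.9 against 227, 196, 232 and 213. Dntt, the terminal transferase that adds bases at V(D)J junctions, was at 563, 561, 528 and 601 against 1544, 1544, 1509 and 1409, and Ptcra, which codes for the pre-TCR alpha chain, was at 17.6, 19.7, 23.3 and 17.1 against 76.1, 61.4, 63.2 and 47.3. The recombinase genes and Dntt were therefore still detected in selected cells, at a lower level. Arpp21, Aqp11, Endou, Ets2, Rmnd5a and Slc7a11 were the others that were lower by this measure. Cd24a did not separate the classes, with 181, 284, 140 and 262 against 195, 286, 168 and 266. It was lower in maturing cells, at 63.4, 88.3, 61.9 and 106.

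The start region of Rag1, the preselection gene with the lowest ratio, is shown with the letters CAGCTG (an E box form bound by E proteins) and TGTGGT (a core of Runx sites) in capitals. It is the 250 bases before the RefSeq start on GRCm38.p6, chr2:101649533-101649782 on the minus strand.
Rag1: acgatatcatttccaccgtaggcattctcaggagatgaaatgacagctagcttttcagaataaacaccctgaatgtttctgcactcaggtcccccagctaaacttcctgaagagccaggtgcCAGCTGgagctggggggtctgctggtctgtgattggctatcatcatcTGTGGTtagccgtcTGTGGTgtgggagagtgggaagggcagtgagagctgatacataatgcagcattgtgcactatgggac
CAGCTG begins 128 bases before the start, and TGTGGT begins 81 and 67 bases before it. CAGCTG on either strand was found in the windows of 13 of 57 genes with a window that were lower in selected cells (22.8%), of 12 of 87 that were higher (13.8%), and of 12.5% of the 5239 compared genes with a window. TGTGGT was found in 12.3%, 13.8% and 12.6% of the same groups, and all windows held CAGCTG in 13.0% and TGTGGT in 14.0%. These are counts of letters and were not tested.

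Survival and cytokine receptor genes differed in both directions. Il7r, the alpha chain of the IL-7 receptor, was at 193, 132, 302 and 179 CPM in selected cells against 6.90, 3.97, 8.05 and 7.78 in unselected cells. Bcl2, which protects maturing thymocytes from apoptosis, was at 383, 257, 560 and 320 against 18.9, 15.7, 23.0 and 20.2. Bcl2l1 (Bcl-xL), which serves that role in preselection DP cells, ran the other way, at 64.7, 72.4, 77.5 and 72.5 against 200, 194, 172 and 172. The exchange of the 2 antiapoptotic genes was thus present in all libraries. The proapoptotic gene Bcl2l11 (Bim) was at 68.7, 72.9, 67.9 and 91.3 in selected cells and at 43.7, 51.2, 45.0 and 56.4 in unselected cells, below 2-fold. Of the 12 genes of this group measured, 2 were higher and 1 lower by 2-fold in every library.

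Of 13 measured response genes other than those of the definition, only Nab2, a corepressor that binds EGR proteins and is itself induced by them, was at least 2-fold higher in every library, although the median log2 ratio of the 13 was 0.89. Nab2 was at 112, 112, 73.3 and 92.4 CPM in selected cells and at 4.28 to 6.60 in unselected cells, but it was higher still in signalled cells, at 148, 133, 147 and 196. Dusp2, a phosphatase that turns off ERK signalling, was at 211, 240, 201 and 228 against 110, 123, 95.2 and 109, close to 2-fold. Nfkb1 was at 87.6 to 98.0 against 40.7 to 53.7. Both were higher in selected cells in each library without reaching the limit in all. Of the response genes Egr3, Nr4a2, Irf4, Fos, Fosb, Jun, Cd44 and Spry1, none reached 20 CPM in either class as a mean over the libraries, so that they were not compared. Jun alone passed that level in single libraries, control 2 and cKO 2.

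Of the 13 genes of the TCR complex and costimulators, Cd2, Cd28 and Cd6 were higher by 2-fold in every library. Cd2, an adhesion and costimulatory receptor, was at 576, 515, 637 and 520 CPM against 60.9, 51.3, 70.1 and 61.6, and Cd28 at 870, 752, 753 and 710 against 315, 284, 321 and 270. Trac, the constant region of the TCR alpha chain, was at 1124, 1143, 917 and 924 against 563, 606, 491 and 453. Trbc2, that of the beta chain, was lower in selected cells, at 5511, 6301, 5287 and 5182 against 6708, 7071, 6614 and 5900, and the CD3 genes lay close to their unselected levels. Trac was thus close to 2-fold higher in selected cells, whereas transcripts of the beta chain were not higher. Among the 20 genes of proximal signalling, the kinase gene Fyn alone was 2-fold higher, at 182 to 206 against 67.7 to 86.1. Lck, the kinase that binds CD4 and CD8, was at 1015, 1076, 937 and 973 against 1548, 1535, 1411 and 1365, and Themis, needed for positive selection, was at 449, 595, 428 and 530 against 840, 908, 865 and 887. Both were lower in selected cells in each library, but not by 2-fold in all of them.

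Transcription factors of both lineages were higher in selected cells. Gata3, an activator of Zbtb7b, was at 228, 181, 182 and 181 CPM against 53.1, 48.9, 54.0 and 52.8. Zbtb7b itself was at 47.6, 29.5, 45.2 and 31.4 against 1.12 to 2.33, and Runx3 at 33.9, 32.0, 57.6 and 57.6 against 10.9, 8.86, 23.5 and 20.5. Genes of both fates were thus present in the same pool of cells. Id2 (160 to 290 against 17.7 to 24.1), an inhibitor of E proteins, and Lef1 (616 to 865 against 249 to 284), a TCF family factor, completed the 5 of 15 factors that reached 2-fold in every library. Satb1, Tcf7 and Runx1 lay within 2-fold. Ikzf2 (Helios), a factor known from regulatory T cells and from strong TCR signals, was at 327, 385, 459 and 567 against 70.7, 83.2, 143 and 159, although cells with Foxp3 UMIs had been left out.

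Of 11 measured migration and adhesion genes, Ccr4, Ccr7 and Cd53 were higher by 2-fold in every library. Ccr7, the receptor for medullary chemokines, was at 95.6, 53.7, 89.1 and 51.9 CPM against 8.13 to 8.87, and Cd53, a tetraspanin of leukocytes, at 255, 184, 261 and 166 against 13.6 to 19.3. The cortical receptors Ccr9 and Cxcr4 did not reach 2-fold. Of the 12 genes of MHC class I and maturation, H2-K1, Ifi27l2a and Ms4a4b reached it, and the median log2 ratio was 0.74. Of 18 cell cycle genes, only Ccnd2 was higher, at 249, 111, 236 and 176 against 9.47 to 24.0, in cells chosen for the near absence of mitotic transcripts. None of 6 measured genes of the Tox family and the PNUTS-PP1 complex other than Tox reached 2-fold.

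Izumo1r (folate receptor 4), Hivep3, Bach2, Chl1, Tesc, Samhd1, Tmsb10, B630019A10Rik and A430093F15Rik were among the 15 genes with the largest ratio. Izumo1r was at 143, 89.6, 178 and 151 CPM against 3.46 to 6.40. Bach2, a repressor that restrains effector differentiation, was at 102, 96.0, 99.4 and 98.7 against 7.02 to 9.82. Tmsb10, which codes for an actin-binding thymosin, had the highest levels of the 15 and was at 7343, 5572, 5560 and 3965 against 1138, 906, 778 and 637. Among the 15 with the lowest ratio were Xrra1, Sytl3, P2rx1 (an ATP-gated channel), Rnf157, Prodh (proline dehydrogenase), Insl5, Morc1 and the noncoding or unnamed loci B230118H07Rik, BC065403, Gm15340 and BB031773, with Rnf157 at 54.6, 69.9, 46.6 and 56.5 against 154, 243, 132 and 181.

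The change was graded over the number of marker UMIs and did not begin at the limit of the definition. Rag1 stood at 2100, 1529, 1595 and 1585 CPM in DP cells with 2 marker UMIs, at 1656, 1167, 1263 and 1031 with 3, at 974, 907, 942 and 801 with 4, the lowest number inside the definition, and at 280, 352, 253 and 497 with 12 or more. Cd2 was at 111 to 149 with 2 marker UMIs, at 173 to 194 with 3, at 236 to 288 with 4 and at 748 to 889 with 12 or more. The cells just outside the limit (107, 185, 108 and 157 cells with 3 marker UMIs) thus held intermediate levels of both genes, as did those just inside (68, 85, 53 and 97 cells with 4). Bcl2 was at 72.5, 94.3, 97.0 and 71.3 with 3 marker UMIs, at 104, 65.0, 113 and 138 with 4, and at 596, 441, 969 and 616 with 12 or more. Il7r was at 19.8, 11.8, 33.1 and 18.3, then 65.8, 32.5, 52.3 and 110, and 285, 272, 507 and 323. Nab2 was at 22.0, 23.6, 28.4 and 20.4, then 31.2, 44.3, 30.5 and 37.6, and 158, 159, 113 and 112. Ikzf2 was the exception among these, with its highest level at 8 to 11 marker UMIs in control 1, control 2 and cKO 1 (632, 592 and 740, with 704 in cKO 2) and 245, 313, 314 and 377 at 12 or more. Median UMIs per cell also rose, from 2727 to 3859 at 4 marker UMIs to 4266 to 5489 at 12 or more. On the side of the strong signal genes the limit lay in few cells, with 11, 10, 8 and 13 cells at 3 signal UMIs and 9, 8, 5 and 6 at 4. Bcl2 was at 483, 347, 590 and 805 in the former and at 277, 310, 787 and 516 in the latter.

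**Figure D2:**
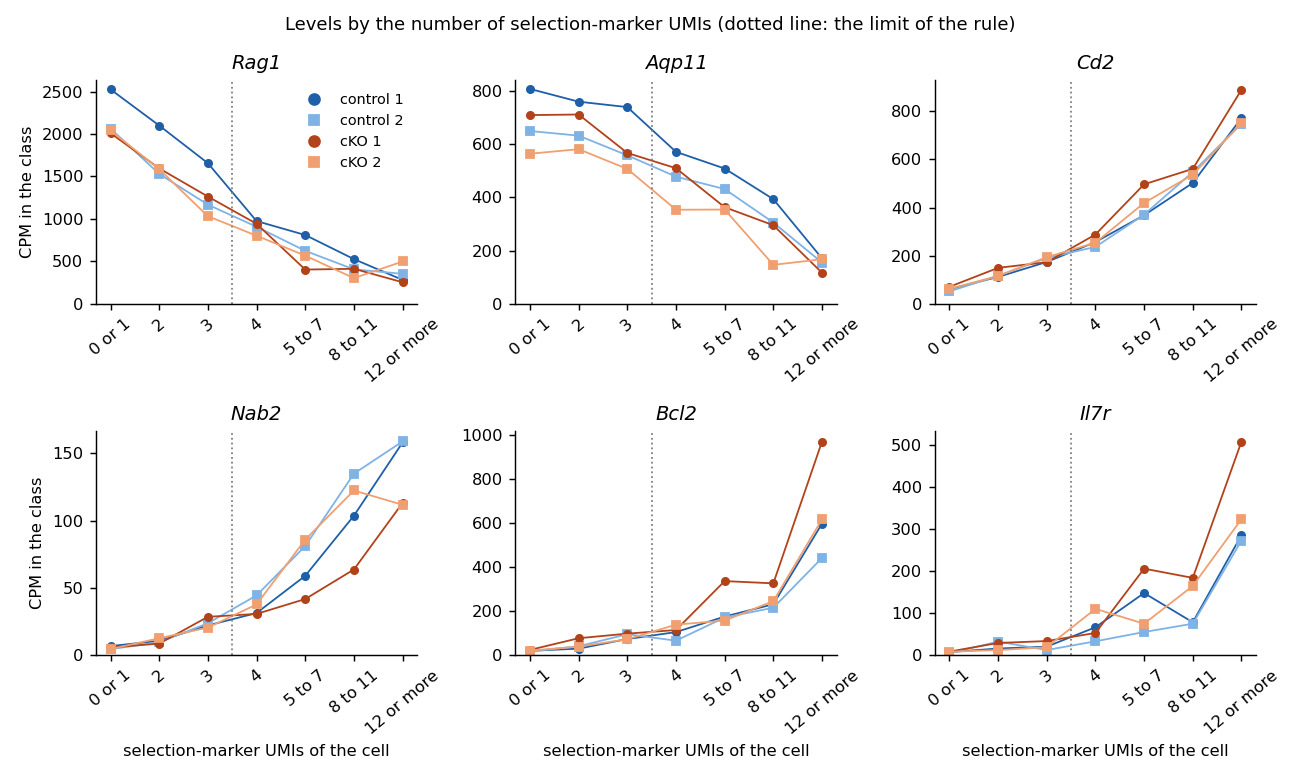
Levels of Rag1, Aqp11, Cd2, Nab2, Bcl2 and Il7r in CPM (vertical axes) by the number of selection marker UMIs per DP cell (horizontal axes), with 1 line per library and a dotted line between 3 and 4 UMIs, the limit of the definition. From the first bin to the last, Rag1 and Aqp11 are lower and the other 4 genes higher in every library, though not at each step: Bcl2 in control 2 is at 94.3 with 3 UMIs and at 65.0 with 4.

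Selected cells with at least 4 Itm2a UMIs and those with none differed by 2-fold in some genes that also set selected apart from unselected cells, such as Il7r, Bcl2 and Cd2, and in others that did not. The first numbered 170, 143, 127 and 155 cells, with median UMIs per cell of 5628.5, 4822, 4875 and 4012, and the second 157, 193, 81 and 173 cells, with 3660, 3193, 3744 and 2604. Of 3686 genes with at least 50 CPM in 1 of these subsets, 47 (1.28%) were at least 2-fold higher with Itm2a and 71 (1.93%) at least 2-fold lower, in every library. The split uses a gene of the definition and the cells differ in depth, so that this too is a description with no test.

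Of the lists, cells with Itm2a had 2 of 14 measured lineage factors at least 2-fold higher (Id2 and Zbtb7b), 2 of 11 survival and cytokine receptor genes (Bcl2 and Il7r), 3 of 10 migration and adhesion genes (Ccr4, Ccr7 and Cd53) and none of 12 MHC class I and maturation genes, of which 1 (Ly6e) was lower. Il7r was at 348, 308, 509 and 348 CPM with Itm2a and at 40.9, 8.22, 12.1 and 25.3 without. Bcl2 was at 660, 465, 930 and 575 against 97.6, 133, 69.8 and 133. Ccr7 was at 169, 113, 129 and 92.9 against 14.2, 11, 6.07 and 15.6. Without Itm2a, selected cells of every library thus had lower levels of all 3 genes than with it. Zbtb7b was at 97.9, 71.1, 83.6 and 61.9 with Itm2a and at 3.15, 4.11 and 7.80 in control 1, control 2 and cKO 2 without it, and no Zbtb7b UMI was seen in such cells of cKO 1. Ccnd2, Izumo1r and Cd2 were also higher by 2-fold in every library.

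Genes of the preselection program were on the other side, with 8 of 14 measured at least 2-fold lower with Itm2a, among them Aqp11, Arpp21, Cd24a, Dntt, Endou, Myb and Rmnd5a. Dntt was at 201, 223, 307 and 293 CPM with Itm2a and at 1023, 872, 928 and 984 without, and Myb, a factor of progenitor and DP cells, at 140, 173, 185 and 223 against 730, 715, 692 and 856. Rag1 was lower in each library, at 252, 312, 330 and 441 against 790, 714, 579 and 629, but by 2-fold only in the control libraries. Ikzf2 was lower with Itm2a, at 94.9, 197, 254 and 264 against 535, 562, 925 and 883, the reverse of its order between selected and unselected cells. Bcl6, Ikzf3, Cxcr4, Ly6e and Ccnd3 were lower too, and Ighm, a gene of the B cell list whose transcripts are also known from thymocytes, was at 110, 122, 128 and 158 against 639, 532, 586 and 544. Some genes that separated selected from unselected cells did not separate the subsets. Cd28 was at 869, 714, 801 and 713 with Itm2a and at 905, 787, 701 and 766 without, and Gata3 at 233, 196, 166 and 174 against 255, 185, 221 and 226. Among genes of the definition, Egr1 was at 141, 153, 214 and 192 with Itm2a against 406, 307, 234 and 509, Cd5 at 525, 428, 409 and 422 against 866, 781, 722 and 760, and Cd8a at 402, 443, 339 and 357 against 1766, 1353, 859 and 1019. Cells without Itm2a had to reach 4 UMIs through the other markers, which fixes part of the order of Egr1 and Cd5.

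**Figure D3:**
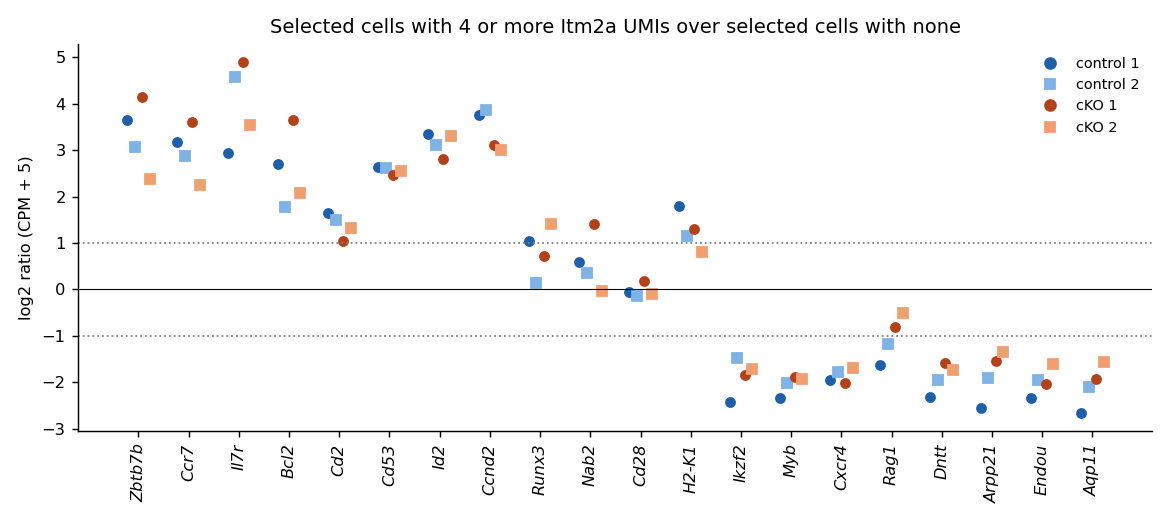
Log2 ratio of the level in selected cells with at least 4 Itm2a UMIs over that in selected cells with none (5 CPM added), for 20 genes, with 1 point per library and dotted lines at 2-fold. Il7r, Bcl2, Zbtb7b and Ccr7 lie above the upper line and Dntt, Myb and Ikzf2 below the lower line in every library.

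Selected cells with at least 2 UMIs of Egr1 and Egr2 together (112, 108, 61 and 116 cells) were compared with those with none (274, 307, 208 and 293 cells), at like depth (median UMIs 3073 to 4225 against 3279 to 4421.5). Of 3531 genes, 2 (0.0566%) were at least 2-fold higher in every library and none was lower. They were Dusp2, at 383, 378, 406 and 406 CPM against 145, 180, 135 and 144, and the immediate early gene Ier2, at 198, 246, 198 and 149 against 62.5, 66.5, 53.3 and 65.5. Gata3 was higher in each library, at 301, 257, 299 and 243 against 182, 142, 154 and 147, as was Cd6, at 566, 620, 427 and 596 against 367, 350, 334 and 436, both below 2-fold. Rag1, Dntt and Arpp21 were not 2-fold apart, and the median log2 ratio of the 14 preselection genes was 0.02. Egr and Itm2a UMIs thus split selected cells along different genes. Ier2 belongs to the list of stress and dissociation genes, and whether handling of the cells had a part in it was not tested.

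Dusp2 is a known target of EGR proteins, and its start region is shown because it holds the letters of an EGR site. It is the 250 bases before the RefSeq start on GRCm38.p6, chr2:127335909-127336158 on the plus strand, with the match in capitals, 98 bases before the start.
Dusp2: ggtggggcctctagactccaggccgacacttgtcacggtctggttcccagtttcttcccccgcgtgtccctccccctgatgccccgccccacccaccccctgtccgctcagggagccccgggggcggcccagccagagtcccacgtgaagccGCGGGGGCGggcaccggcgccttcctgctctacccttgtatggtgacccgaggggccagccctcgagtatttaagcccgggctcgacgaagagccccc
The EGR letters (GCGTGGGCG or GCGGGGGCG, either strand) were found in 3.06% of all windows. Counted by gene, which is another unit, they were found for 7.08% of the 5239 compared genes. The same count gave 6 of 87 higher genes (6.90%) and 3 of 57 lower genes (5.26%). The CArG box was in 2 of 87 higher genes (2.30%), in none of 57 lower genes and in 1.20% of the compared genes.

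Selected cells with a Zbtb7b UMI numbered 69, 42, 47 and 40, and they were deeper than the rest, with medians of 6327, 5418, 5274 and 4275 UMIs against 4188.5, 3548.5, 4220 and 3151. Of 3590 genes, 16 (0.446%) were at least 2-fold higher in them in every library and 43 (1.20%) at least 2-fold lower. Ccr7 was at 232, 234, 220 and 176 CPM against 60.4, 30.1, 60.9 and 37.1, and Il7r at 426, 413, 535 and 475 against 133, 95.2, 251 and 144. Ccnd2 and Id2 were the other list genes that were higher. Aqp11, Dntt, Endou, Myb, Rmnd5a and Slc7a11 of the preselection program were lower, with Aqp11 at 60.2, 55.4, 96.3 and 96.2 against 400, 352, 310 and 272. Runx3 was at 30.1, 25.6, 53.9 and 58.8 in cells with Zbtb7b and at 34.9, 32.8, 58.4 and 57.5 in those without. It was under the 50 CPM asked of compared genes here, so that these low levels in 40 to 69 cells a library support no comparison.

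Selected cells were also set beside signalled and maturing cells. Against signalled cells, 7 of 3621 genes (0.193%) were at least 2-fold higher in selected cells in every library and 33 (0.911%) lower. The lower genes included 6 of 14 response genes, namely Dusp5, Egr3, Nfatc1, Nfkb1, Nr4a2 and Rel. Nfkb1 was at 94.2, 87.6, 98.0 and 94.2 CPM against 404, 408, 359 and 327 in signalled cells, and Egr3 at 9.69, 7.88, 15.1 and 13.1 against 152, 45.3, 70.6 and 111. Bcl2l11, the proapoptotic gene of negative selection, was at 68.7, 72.9, 67.9 and 91.3 against 328, 357, 382 and 503. These genes were not part of the definition, but it left out cells with 4 or more strong signal UMIs. Aqp11, Arpp21 and Rmnd5a of the preselection program were higher in selected cells, with Arpp21 at 448, 494, 473 and 537 against 211, 235, 176 and 241. Signalled cells were few, 26 to 52 a library, so that these levels rest on 170024 to 374970 UMIs. The summed level of the 10 stress and dissociation genes was also higher in signalled cells, at 2342, 2248, 2311 and 2143 CPM against 1565, 1514, 1449 and 1482.5 in selected cells. That of the 5 NKT and innate-like genes was at 148, 104, 29.4 and 20.1 against 15.4, 8.37, 22.6 and 18.8, and that of the 11 phagocyte genes at 262, 2440.2, 259 and 644 against 355, 1094.5, 335 and 546. The 4 regulatory T cell genes, Ikzf2 among them, summed to 1240.5, 1104, 829 and 1922 against 337, 405, 489 and 599. The part of these lists in the contrast was not tested.

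Against maturing cells, 14 of 3501 genes (0.400%) were higher and 53 (1.51%) lower in selected cells. Of the 12 MHC class I and maturation genes, 6 were among the 53 lower genes (B2m, H2-D1, H2-K1, Ifi27l2a, Ms4a4b and Ms4a6b). H2-K1 was at 230, 116, 263 and 192 CPM in selected cells and at 1344, 998, 1158 and 1048 in maturing cells, and B2m at 459, 375, 531 and 543 against 1312, 1123, 1234 and 1207. Ccr7 was at 95.6, 53.7, 89.1 and 51.9 against 256, 247, 255 and 200, and Itgb7, an integrin chain, at 27.3, 16.2, 28.8 and 24.5 against 181, 115, 163 and 126. The summed level of the 5 NKT and innate-like genes was also higher in maturing cells, at 123, 89.2, 73.6 and 147 CPM against 15.4, 8.37, 22.6 and 18.8 in selected cells. That of the 11 phagocyte genes was at 417, 755, 338 and 3859 against 355, 1094.5, 335 and 546, and cells in the top 5% of doublet scores made up 7.83%, 16.0%, 8.23% and 18.6% of maturing cells against 8.43%, 12.8%, 6.51% and 7.96% of selected cells. The part of these in the contrast was not tested. Ccr9, the receptor for a cortical chemokine, was higher in selected cells, at 1601, 1804, 1359 and 1728 against 508, 784, 453 and 626, with Aqp11, Cd24a and Endou. Bcl2 did not differ by 2-fold, at 285, 348, 435 and 338 in maturing cells, and Zbtb7b was too low to be compared. The median log2 ratio of all compared genes was 0.20 against maturing cells and 0.09 against signalled cells.

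Selected cells made up a smaller share of thymocytes in both cKO libraries, but the groups overlapped when each cell was thinned to equal depth. They were 8.12% (95% exact binomial interval 7.41 to 8.87), 5.54% (5.07 to 6.05), 4.79% (4.28 to 5.34) and 4.12% (3.76 to 4.50) of the cells that passed the limits. Among DP cells the shares were 10.9% (10.0 to 11.9), 8.02% (7.33 to 8.74), 7.62% (6.82 to 8.48) and 6.52% (5.96 to 7.12), or 9.48% ± 2.07 (SD, n = 2) in control and 7.07% ± 0.777 (SD, n = 2) in cKO. The groups did not overlap, and the difference of −2.41 percentage points had an exact permutation p of 0.333 (two-sided), the smallest that 2 against 2 libraries can give. Without control 1 the difference was −0.944 points and without control 2 it was −3.87 points. The intervals of control 2 and cKO 1 overlapped. Without the top 5% of doublet scores the shares of DP cells themselves overlapped between the genotypes, with control 2 at 7.38% and cKO 1 at 7.49% (exact permutation p = 0.667), as they did with at least 6 marker UMIs, at 5.30% and 5.46% (exact permutation p = 0.667). DP cells as a whole were 71.7% ± 3.54 of passing cells in control and 63.0% ± 0.216 in cKO (SD, n = 2 each). Being counted as DP asks for a UMI of Cd8a or Cd8b1, and both were lower in both cKO libraries. In selected cells Cd8a was at 985, 934, 585 and 640 CPM and Cd8b1 at 1227, 1258, 950 and 1077. The study also reports lower Cd8a and Cd8b1 transcripts in several clusters, with little change of CD8 protein. The part of this in the shares was not tested.

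With each cell thinned to 1500 UMIs before the definition was applied, 4.41%, 2.72%, 3.11% and 3.05% of DP cells were selected. These were 107, 104, 69 and 145 of 2426, 3817, 2222 and 4747 DP cells. Shares fell in every library, so that differences in points before and after thinning are not on 1 scale. The groups then overlapped, with means of 3.57% ± 1.19 and 3.08% ± 0.0359 (SD, n = 2 each), a difference of −0.488 points and an exact permutation p of 1. Within bins of depth, the share of DP cells with 1500 to under 2500 UMIs was 2.66%, 2.5%, 0.8% and 3.29%, and that with 2500 to under 4000 UMIs was 7.85%, 9.09%, 6.59% and 9.73%. In these lower bins the groups overlapped, and cKO 2 had the highest share. With 4000 to under 6000 UMIs the shares were 23.0%, 18.8%, 18.2% and 15.7%, and with 6000 or more 10.7%, 6.86%, 5.28% and 4.01%, with both cKO libraries below both control libraries. Per 100 unselected cells there were 18.5 ± 6.54 selected cells in control and 14.1 ± 3.42 in cKO (SD, n = 2 each), with overlap of the groups and an exact permutation p of 0.667. Without control 1 this difference turned to 0.206 higher in cKO.

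**Figure D4:**
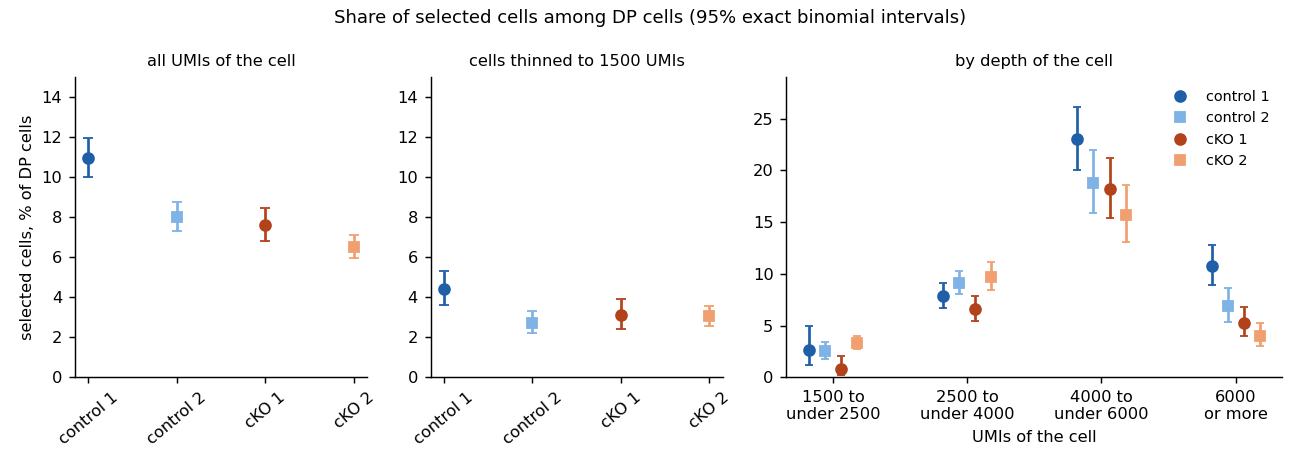
Selected cells as a percentage of DP cells in each library, from all UMIs (left), after thinning to 1500 UMIs (middle) and by depth bin (right), with 95% exact binomial intervals that cover counting error only. From all UMIs the cKO libraries, at 7.62% and 6.52%, lie below the control libraries, at 10.9% and 8.02%, and after thinning the groups overlap.

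Tox4, the targeted gene, was at 96.0, 96.5, 64.4 and 68.5 CPM in selected cells (log2 fold change −0.51, SE 0.15, adjusted p = 0.453). The tags come from the 3′ end of the transcript, outside the loxP-flanked exons, so that this level does not check the deletion. In unselected cells Tox4 was at 79.8, 77.9, 62.7 and 66.9.

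Between genotypes, Gzma, Gm14718 and Gm32004 differed in selected cells beyond the spread of the libraries. The UMIs of selected cells were summed per library and tested with edgeR, and of 9271 genes outside the definition 3 passed an adjusted p of 0.05 (0.0324%), against 660 with an unadjusted p under 0.05 (7.12%). Gzma (chromosome 13, 113093825 to 113100981, minus strand), which codes for the serine protease granzyme A of cytotoxic lymphocytes, was at 33.0, 43.8, 116 and 154 CPM and rose in cKO by 1.84 on the log2 scale (SE 0.19, adjusted p = 0.00598). Gm14718 (chromosome X, 57200643 to 57204378, plus strand), annotated as an antisense transcript, was at 16.7, 21.2, 72.0 and 55.9 and rose by 1.77 (SE 0.20, adjusted p = 0.0093). Gm32004 (chromosome 13, 107524061 to 107565331, minus strand), a noncoding transcript, was at 31.7, 37.4, 8.23 and 10.3 and fell by 1.86 (SE 0.26, adjusted p = 0.047). In all 3 both cKO libraries lay outside the control range, as they did for 37.7% of all tested genes. The count depended on single libraries, with 80 genes without control 1, 35 without control 2, 2 without cKO 1 and 1 without cKO 2, and without cKO 2 none of the 3 passed. Positions are those of GENCODE on GRCm38.

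The same genes in unselected cells of the same mice gave Gzma at 44.2, 33.5, 150 and 112 CPM (log2 fold change 1.80, adjusted p = 0.00034) and Gm32004 at 109, 112, 37.0 and 31.9 (−1.65, adjusted p = 4.77e-05). Neither change was thus limited to selected cells. Gm14718 was at 0.767 to 1.75 in unselected cells (0.64, adjusted p = 0.597). It was nearly absent there in all libraries, so that a difference could not be measured well at this depth. Within selected cells, Gm14718 was at 29.1, 49.6, 128 and 124 with at least 4 Itm2a UMIs, and without Itm2a it was at 12.6 in control 1 with no UMI in the other libraries. Among selected cells, Gzma was higher in those without Itm2a, at 45.7, 49.3, 188 and 308, than in those with at least 4 Itm2a UMIs, at 7.75, 4.02, 54.3 and 44.2. Cytotoxic and innate-like lymphocytes also express Gzma. The summed level of the 5 gamma-delta T cell genes in selected cells was 70.9, 36.9, 105 and 80.5 CPM, and that of the 5 NKT and innate-like genes was 15.4, 8.37, 22.6 and 18.8, both higher in the cKO libraries, and their part in the Gzma result was not tested.

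Whether genes of the lists passed the edgeR test in selected cells depended on the fit. With replicate number as a block, Trac, Trbc1, Cd3g, Rmnd5a, Runx3, Ikzf2, Il7r, Bcl2 and B2m passed. The labels do not say that a number marks a pair. Ikzf2, Rmnd5a, Trbc1, Runx3, Il7r and Bcl2 also passed with no filter on low counts. In the main fit, with all libraries, that filter and no block, no list gene passed. An unadjusted p under 0.05, held by 7.12% of all tested genes, was found for 3 of 13 genes of the TCR complex and costimulators and 2 of 15 preselection genes, with lower levels in cKO, and for 2 of 16 lineage factors and 2 of 12 MHC class I and maturation genes, with higher levels. Among lists of other cell types it was found for 2 of 4 gamma-delta T cell genes and 2 of 3 regulatory T cell genes, all higher in cKO, and for 3 phagocyte genes higher and 3 lower of 10. The remaining lists held at most 2 such genes each. Of the 13 genes of the TCR complex and costimulators, 7 were lower in both cKO libraries than in both control libraries and none was higher, where 21.3% of all tested genes were lower and 16.4% higher without overlap. Trac was at 1124, 1143, 917 and 924 CPM (log2 fold change −0.28, adjusted p = 0.476) and Trbc1 at 3292, 3565, 2797 and 2762 (−0.28, adjusted p = 0.453). The list median was −0.13, beside 0.00 for all tested genes. Of the 15 preselection genes, 5 were lower without overlap, with Rmnd5a at 447, 424, 287 and 322 (−0.49, adjusted p = 0.225) and Aqp11 at 330, 318, 272 and 253 (−0.28, adjusted p = 0.600), and the list median was 0.03. Rag1 overlapped between groups (−0.11, adjusted p = 0.885). Of 20 proximal signalling genes 5 were higher and 2 lower without overlap, and of 20 cell cycle genes 5 were higher and 2 lower.

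For the lineage factors, Runx3 was at 33.9, 32.0, 57.6 and 57.6 CPM in selected cells (log2 fold change 0.83, SE 0.16, adjusted p = 0.182) and did not pass, although the groups did not overlap. In unselected cells it did pass, at 10.9, 8.86, 23.5 and 20.5 (1.20, adjusted p = 0.0083), where 158 of 11414 genes were called (1.38%). Ikzf2 was at 327, 385, 459 and 567 in selected cells (0.55, SE 0.12, adjusted p = 0.259) and at 70.7, 83.2, 143 and 159 in unselected cells (1.01, adjusted p = 0.00199). The changes of both genes had the same sign in both classes. Zbtb7b (−0.01, adjusted p = 0.994) and Gata3 (−0.15, adjusted p = 0.861) did not pass in selected cells. Il7r, at 193, 132, 302 and 179 (0.58, adjusted p = 0.601), and Bcl2, at 383, 257, 560 and 320 (0.48, adjusted p = 0.712), overlapped between groups, with cKO 1 highest for both. Within each replicate number both genes were higher in cKO. With replicate number as a block, Runx3, Ikzf2, Il7r, Bcl2 and B2m passed, although the labels do not say that a number marks a pair. Without control 1 the log2 fold change was 0.89 for Il7r and 0.80 for Bcl2, and without control 2 it was 0.67 for Ikzf2. Of the MHC class I and maturation genes, B2m was at 459, 375, 531 and 543 (0.39, adjusted p = 0.453) and 2 of 12 were higher without overlap, near the 16.4% of all tested genes. The integrin gene Itga4 was at 69.1, 67.9, 88.4 and 102 (0.50, adjusted p = 0.475). Nab2, at 112, 112, 73.3 and 92.4 (−0.41, adjusted p = 0.600), was lower in both cKO libraries but did not pass. The TCR response genes Junb (90.3, 296, 98.0 and 221) and Fos (3.52, 19.2, 4.11 and 17.1) were high in control 2 and cKO 2, irrespective of genotype.

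**Figure D5:**
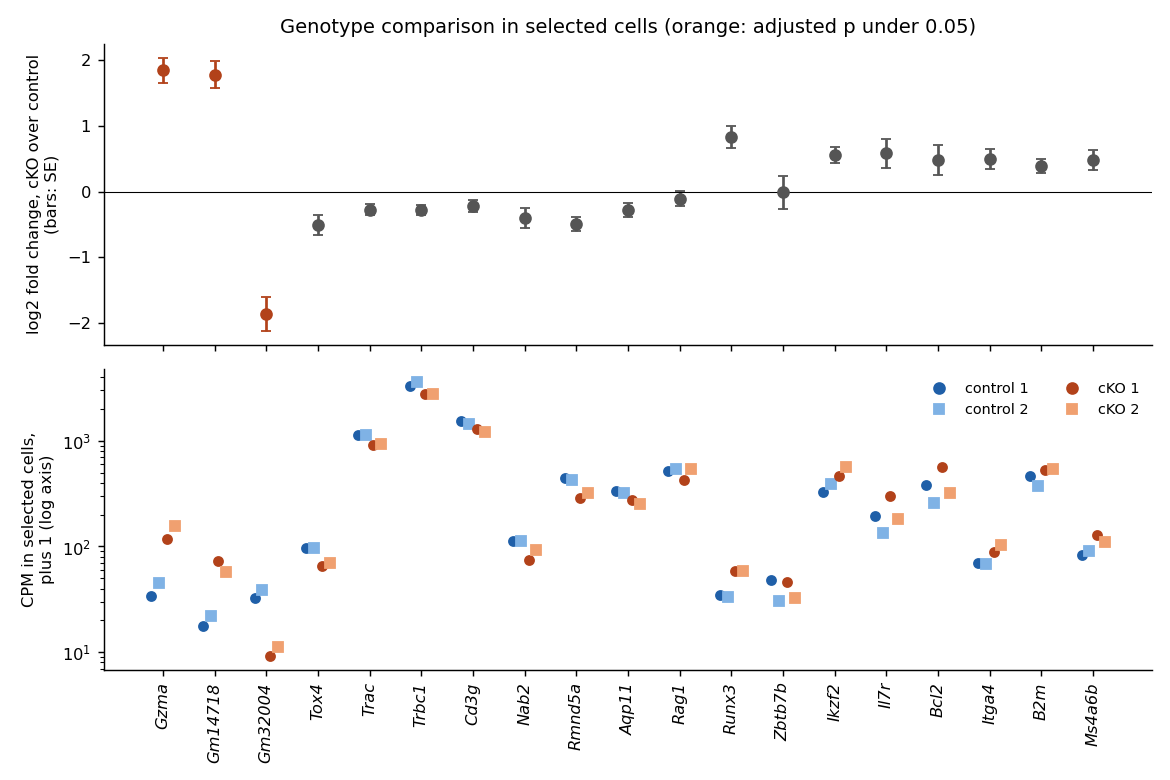
Log2 fold change of cKO over control in selected cells with its standard error (top) and the level of each library in CPM (bottom), for 19 genes. Gzma and Gm14718 lie above 0 and Gm32004 below 0 with adjusted p under 0.05 (edgeR, main fit), whereas the other genes shown did not pass in that fit.

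Whether the genotype change differed between selected and unselected cells was tested with the library as a block. Of 10914 genes, 2 passed an adjusted p of 0.05 (0.0183%) and 565 had an unadjusted p under 0.05 (5.18%). Ccl5, a chemokine gene of T and innate-like cells, was at 20.7, 26.1, 37.0 and 106 CPM in selected cells and at 48.6, 37.5, 29.2 and 47.7 in unselected cells (difference of the log2 changes 1.75, SE 0.25, adjusted p = 0.0141). Ctss, which codes for cathepsin S of antigen-presenting cells, was at 25.5, 31.5, 17.8 and 18.8 in selected cells and at 9.20, 11.1, 59.8 and 16.0 in unselected cells (−2.42, SE 0.38, adjusted p = 0.0263). Ccl5 was highest in selected cells of cKO 2 and did not pass without that library (1.21, adjusted p = 0.0642), and Ctss was highest in unselected cells of cKO 1 and did not pass without it (−1.27, adjusted p = 0.109). Without either control library neither gene passed. The phagocyte genes C1qa and Lyz2 were also highest in unselected cells of cKO 1, with C1qa at 16.4, 20.2, 120 and 36 CPM and Lyz2 at 28.8, 36.7, 148 and 33.5 in unselected cells, and their part in the Ctss result was not tested. The count of 2 became 7 without control 1, 0 without control 2, 21 without cKO 1 and 19 without cKO 2. Ikzf2 (−0.46, adjusted p = 0.163) and Runx3 (−0.36, adjusted p = 0.934) did not pass, so that their calls in unselected cells alone do not show a difference between the classes.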

How the data were processed

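Thymocytes of 4 libraries (10x 3′ chemistry, 2 control and 2 cKO) were analysed from the deposited UMI counts per gene and cell, which the authors made with Cell Ranger on mm10, and no other per-sample values were used. Cells were kept with at least 200 genes, at least 1500 UMIs and at most 10% mitochondrial UMIs, and no doublet was removed in the main analysis, although Scrublet scores (scanpy 1.11.5, expected rate 8%) served an alternative. The members, classes and gene lists were chosen with earlier results of these data known. Levels (CPM) are UMIs of a class summed per library and scaled to 1000000 UMIs of that class. Classes were compared within libraries as log2 ratios with 5 CPM added, without a test. Genotypes were compared on the summed UMI counts with edgeR 4.0.16 (quasi-likelihood F test, TMM, filterByExpr, R 4.3.3) and Benjamini-Hochberg adjustment over all tested genes at 0.05, and the difference between classes with an interaction term and the library as a block. Shares were compared with exact permutation tests. The p-values measure the spread between 2 libraries a group, and intervals cover counting error only. In simulated counts of 9287 genes, 200 genes were changed and all genes had 1 common dispersion. The genotype comparison then recovered 0.5% of changes of 0.5 on the log2 scale, 67.5% of changes of 1 and 92.5% of changes of 2. The interaction test recovered 42.5% of changes of 1. Dispersion and the number of changed genes can differ in the data, so that these shares need not hold there. Named genes were the list genes, genes called between genotypes or in the interaction, and the 15 genes with the highest and the lowest ratios against unselected cells. Motifs were searched in RefSeq start windows on GRCm38.p6, which were matched by symbol for 5239 of the 6512 compared genes. Alternatives were RLE scaling, DESeq2 1.42.0, other filters, limits and depths, a replicate block and leaving out each library.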

Additional observations from a re-analysis of the deposited data

Results flagged for a closer look

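The genotype change of Ccl5 differed between selected and unselected cells by 1.75 on the log2 scale (edgeR interaction test, adjusted p = 0.0141), higher in cKO among selected cells, where cKO 2 alone was high at 106 CPM against 20.7 to 37.0 in the other libraries. The difference for Ctss was −2.42 (adjusted p = 0.0263), where unselected cells of cKO 1 had 59.8 CPM against 9.20 to 16.0 in the other libraries. Over the alternatives the adjusted p of Ccl5 ranged from 1.18e-15 to 0.436 and that of Ctss from 4.73e-15 to 0.542. Their causes were not tested.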

How the results depend on the processing

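The lower share of selected cells in cKO kept its direction in all 14 alternatives, between −3.66 and −0.395 percentage points of passing cells and between −3.87 and −0.488 points of DP cells, with no p that could pass, and the groups overlapped in DP shares with thinning, without the top 5% of doublet scores and with at least 6 marker UMIs. The count of 190 genes 2-fold apart from unselected cells ranged from 150 to 242 over 11 alternatives. The 3 genes called between genotypes were 98 with no filter on low counts (47 higher, 51 lower), 8 with the definition applied after thinning, 6 with equal cell numbers, 1 without the top 5% of doublet scores, and, in alternatives chosen after seeing the data, 7 without the top 2.5% of UMI totals and 7 without cells with over 4 hemoglobin or phagocyte UMIs. DESeq2 called 3, of which 2 were shared. Leaving out each library gave 1 to 80 calls. The 2 interaction calls were 4 with a minimum of 50 UMIs, 1 without the top 5% of doublet scores, and 0 to 21 without each library. With replicate number as a block, 166 genes were called between genotypes (100 higher, 66 lower, all 3 genes among them) and 77 in the interaction (9 higher, 68 lower). Among the genes called with the block were Ikzf2, Rmnd5a, Il7r, Trbc1, Bcl2, B2m, Trac, Runx3 and Cd3g (adjusted p = 9.5e-05 to 0.0253), of which Ikzf2, Rmnd5a, Trbc1, Runx3, Il7r and Bcl2 also passed with no filter on low counts. The study's text speaks of pairs of control and cKO mice, but the labels do not say that a number marks a pair, a shared litter or a day. The differences of replicate 2 from replicate 1 correlated across 9287 genes between the groups at r = 0.225 (genes are not independent replicates). Some values went with the number, such as the cells that passed the limits (44.1%, 71.9%, 41.0% and 65.0%) and Junb in selected cells. Erythroid RNA did so in selected cells (647, 13.3, 592 and 41.1 CPM) but not in unselected cells (2820, 16.0, 183 and 1444 CPM). With 2 numbers pairing stays undecided. Gzma ranged from 1.33 to 3.79 on the log2 scale and missed the threshold in 2 of 17 alternatives, Gm14718 in 4 of 17 and Gm32004 in 7 of 16. Bcl2 turned from 0.48 to −0.013 under the thinned definition, neither called, and passed in 3 of 17 alternatives, as did Il7r and Ikzf2. The causes of these shifts were not tested.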
